A study of Mus musculus with 4 samples.

Results

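Tex15 and 9 further germ cell genes were followed in RNA sequencing of mouse embryonic stem cells that lack B-type lamins and of wild-type cells. The list holds Tex15, Tex101, Dazl, Ddx4, Mael, Sycp1, Sycp3, Tdrd12, Asz1 and Stk31, 10 of the 37991 genes in the deposited count table, and every one of them has a row. The genes were chosen on the dKO against wt comparison of these same libraries, in which Tex15 passed the test, and on prior knowledge that DNA methylation or the Polycomb complex PRC1.6 silences such promoters. Their differences between the genotypes are therefore given as a description, and the counts of calls among them support nothing. The dKO cells are labelled as null for the B-type lamins, nuclear envelope filament proteins made from Lmnb1 and Lmnb2, and the wt cells as wild type. Each genotype had 2 libraries, titled as replicates 1 and 2. All 4 libraries carried the strain label ZHBTc4, a stem cell line whose Pou5f1 comes from a tetracycline-repressible transgene. The labels do not say how many lines or clones stand behind a genotype, so loss of lamins and a difference between lines cannot be told apart.

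Germ cell genes of this kind carry CpG-rich promoters that are kept silent or nearly silent in body cells. In the early embryo and in stem cells PRC1.6 is brought to many of them by MGA with MAX, which bind an E-box, and by E2F6, and DNA methylation and H3K9 methylation by SETDB1 and G9a take over or add to that silencing. In primordial germ cells the promoters lose methylation and the genes come on for meiosis, for the piRNA pathway that represses transposons, and for later steps of sperm and egg formation. Embryonic stem cells express several of them at low levels.

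Library totals ranged from 16584014 to 16697970 counts in dKO and from 12899964 to 14941952 in wt cells. Lmnb1 had 69 and 101 counts in dKO replicates 1 and 2, against 8538 and 8321 in wt, and Lmnb2 had 41 and 55 in dKO against 1343 and 1787 in wt, so the libraries matched their genotype labels. The stem cell identity was checked on 8 markers, all detected, which summed to 5282 and 5605 CPM in dKO, above the 4531 and 4465 CPM of wt replicates 1 and 2. Zfp42, with 1449 and 1435 CPM in dKO and 666 and 613 CPM in wt cells, made up most of that gap, and 4 of the 8 markers had negative fold changes. Pou5f1, the central pluripotency factor, comes from the transgene in this line, so its level is no independent check of identity. It averaged 806 ± 22.4 CPM in dKO and 813.5 ± 88.4 CPM in wt cells (SD, n = 2 each). CPM is the count relative to the TMM-scaled library total, as in edgeR. Markers of spermatids and sperm summed to 0.298 to 0.430 CPM in dKO and 0.394 to 0.469 CPM in wt libraries over 6 genes, with Prm2 and Tnp1 at 0 counts throughout. Of 8 Sertoli and gonadal somatic markers, 3 passed the low-count filter, and the list summed to 24.3 to 24.5 CPM in dKO and 19.3 to 26.2 CPM in wt libraries. Fibroblast markers (4 of 8 past the filter) summed to 4.85 and 5.91 CPM in dKO, below the 7.27 and 12.4 CPM of wt replicates 1 and 2. The part of either difference in the values of the germline genes was not tested.

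The promoter sequences of 9 of the 10 genes were found in the RefSeq table (GRCm38.p6), in 11 windows that run from 250 bases before to 50 after a start. Tex15 had no entry. The 4 genes whose promoters held both searched motifs are printed to show where those motifs lie, with Dazl as the richest in CG of the genes that held neither. The others with neither were Tex101, Asz1 and Tdrd12. Each is the 250 bases before the start, 5′ to 3′ on the strand of the gene. Capitals mark matches to CACGTG, the E-box of MGA and MAX, and to TCCCGC or its complement GCGGGA, the core of E2F6 sites. The stretches are chr13:112652311-112652560 (minus strand) for Ddx4, chr1:166238745-166238994 (minus) for Mael, chr3:102936101-102936350 (minus) for Sycp1, chr10:88459337-88459586 (plus) for Sycp3 and chr17:50293621-50293870 (minus) for Dazl.
Ddx4: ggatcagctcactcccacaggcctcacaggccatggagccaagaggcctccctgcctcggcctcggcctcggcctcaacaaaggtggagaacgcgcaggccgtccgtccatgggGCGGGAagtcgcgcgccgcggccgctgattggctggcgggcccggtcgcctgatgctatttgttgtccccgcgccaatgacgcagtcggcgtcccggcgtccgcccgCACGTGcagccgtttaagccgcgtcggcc
Mael: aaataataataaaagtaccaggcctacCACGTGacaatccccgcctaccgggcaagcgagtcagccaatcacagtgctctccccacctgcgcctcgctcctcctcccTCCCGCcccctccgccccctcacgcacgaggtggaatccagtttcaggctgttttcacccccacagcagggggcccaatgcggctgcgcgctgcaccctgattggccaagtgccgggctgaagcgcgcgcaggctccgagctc
Sycp1: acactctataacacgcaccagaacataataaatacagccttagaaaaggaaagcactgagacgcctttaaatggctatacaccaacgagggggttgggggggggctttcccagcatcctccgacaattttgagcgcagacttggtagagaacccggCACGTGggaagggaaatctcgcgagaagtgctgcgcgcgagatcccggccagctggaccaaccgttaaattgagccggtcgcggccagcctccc
Sycp3: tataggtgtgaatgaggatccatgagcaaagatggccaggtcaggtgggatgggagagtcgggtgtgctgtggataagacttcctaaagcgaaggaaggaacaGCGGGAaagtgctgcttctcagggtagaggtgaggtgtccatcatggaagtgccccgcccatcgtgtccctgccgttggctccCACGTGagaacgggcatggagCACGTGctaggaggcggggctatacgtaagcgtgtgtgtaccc
Dazl: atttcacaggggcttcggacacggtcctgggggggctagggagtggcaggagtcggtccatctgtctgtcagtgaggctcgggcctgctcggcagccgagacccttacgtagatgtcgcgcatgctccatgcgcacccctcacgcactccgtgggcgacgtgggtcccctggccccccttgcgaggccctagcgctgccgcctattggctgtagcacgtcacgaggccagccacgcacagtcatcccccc
The E-box began 29 bases before the start in Ddx4, 94 in Sycp1, 223 in Mael, and 64 and 43 in Sycp3. The E2F6 core began 136 bases before the start in Ddx4, 143 in Mael and 147 in Sycp3. Sycp1 had its only E2F6 core just after the start, outside the printed stretch, and Mael had a second there.

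**Figure D1:**
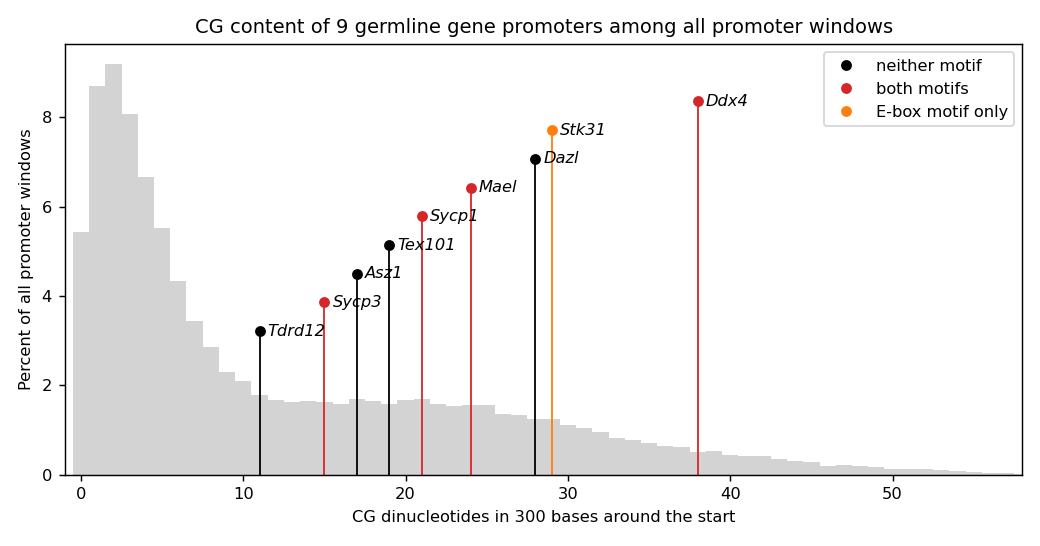
Number of CG dinucleotides in the 300-base promoter window (x axis) for all RefSeq windows (grey bars, percent of windows on the y axis) and for 9 germline genes (pins, whose height carries no value; the first listed window of Tdrd12 and Stk31). Pin colours give the motifs found, and every pin lies above the median of 7 CG over all windows.

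Over both strands, CACGTG was present in the windows of 5 of the 9 genes (Ddx4, Mael, Sycp1, Sycp3 and Stk31), against 8.09% of all 27025 genes in the table. TCCCGC was present in 4 of the 9, against 22.05% of all genes. Both motifs stood together in a window of 4 of the 9 genes. The share over all 32851 windows was 1.99%, counted by window and not by gene. The list was assembled from genes known to be silenced by DNA methylation or PRC1.6, so these counts describe the choice as much as the genes. Both motifs contain a CG, and the shares over all genes or windows were not matched for CG content. A match is not evidence of binding. In the plot of CG content, the windows of the 9 genes held 9 (Tdrd12) to 38 (Ddx4) CG dinucleotides, against a median of 7 over all windows. Ddx4 stood at the 95.3 percentile of all windows by this count. Dazl had 28 CG, and Stk31 had 29 and 28 in its 2 windows. Tdrd12 was the poorest of the 9 in CG, with observed over expected ratios of 0.408 and 0.341 in its 2 windows, against 0.978 in Ddx4. In a shorter window, from 100 bases before to 50 after the start, 4 genes kept an E-box match, 2 an E2F6 match and 1 both.

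The highest levels per length belonged to Tdrd12, a Tudor-domain protein of the piRNA pathway. It had 28.6 CPM per kilobase of exon in dKO and 30.8 in wt cells (means, n = 2 each). That level was above that of 94.6% of all genes with an annotated length, genes without a count included. On the same scale the nearly undetected Asz1 stood at the 42.8 percentile. Sycp3, Mael and Ddx4 followed, with means between 13.1 and 16.2 CPM per kilobase in dKO and between 8.54 and 12.2 in wt cells. Ddx4 was the lowest of the 3 in each of the 4 libraries. Sycp3 lay above Mael in both wt libraries and in dKO replicate 2, and below it in dKO replicate 1. Sycp1, Stk31, Dazl and Tex15 had means of 6.73, 5.71, 4.74 and 2.04 CPM per kilobase in dKO cells, and 5.48, 5.83, 7.29 and 6.67 in wt cells. In dKO cells Tex15, at 2.18 and 1.89 CPM per kilobase in replicates 1 and 2, lay below every library of the other 3, the lowest of which was Dazl at 3.41. In wt cells Tex15, at 7.01 and 6.33, lay inside the range of Dazl, which was 5.24 and 9.35. Tex101 reached 0.507 CPM per kilobase in dKO and 1.04 in wt cells, and Asz1 0.0316 in dKO and 0.0254 in wt cells.

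**Figure D2:**
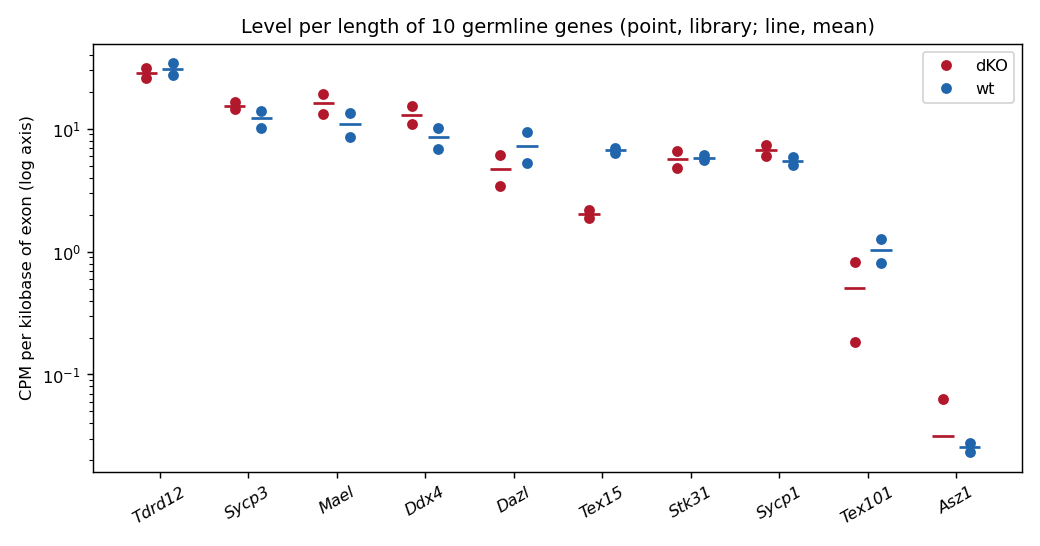
CPM per kilobase of exon on a log axis for the 10 genes, ordered by their wt mean, with dKO (red, left) and wt (blue, right) libraries as points and means as lines. Tex15 has 2.04 CPM per kilobase in dKO against 6.67 in wt cells; the dKO replicate with 0 Asz1 counts is not drawn.

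Tex15 was the gene with the lowest fold change on the list. In male mice it is needed for repair of meiotic DNA breaks and for piRNA-directed DNA methylation of transposons. Its row (ENSMUSG00000009628) spans chromosome 8 from 34627210 to 34696054 in the coordinates of the count table, whose build is not given in the sources used here. Tex15 had 342 and 305 counts in dKO replicates 1 and 2, against 863 and 927 in wt replicates 1 and 2. These were 21.0 and 18.2 CPM in dKO and 67.5 and 60.9 CPM in wt cells. Both dKO libraries lay far below both wt libraries, and the replicates of a genotype lay close together. The means were 19.6 ± 1.98 CPM in dKO and 64.2 ± 4.61 CPM in wt cells (SD, n = 2 each). Tex15 was thus 3.28-fold lower in dKO, or -1.71 on the log2 scale (SE 0.15). Between libraries of the same number, the dKO to wt ratio of CPM was 0.311 for replicates 1 and 0.299 for replicates 2. Of 14027 tested genes, 79 had a fold change as low as that of Tex15 or lower. Sequence similarity gave no sign of a copy: no other GENCODE M21 gene matched a Tex15 transcript over 100 bases at 95% identity, and no other row overlapped it.

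**Figure D3:**
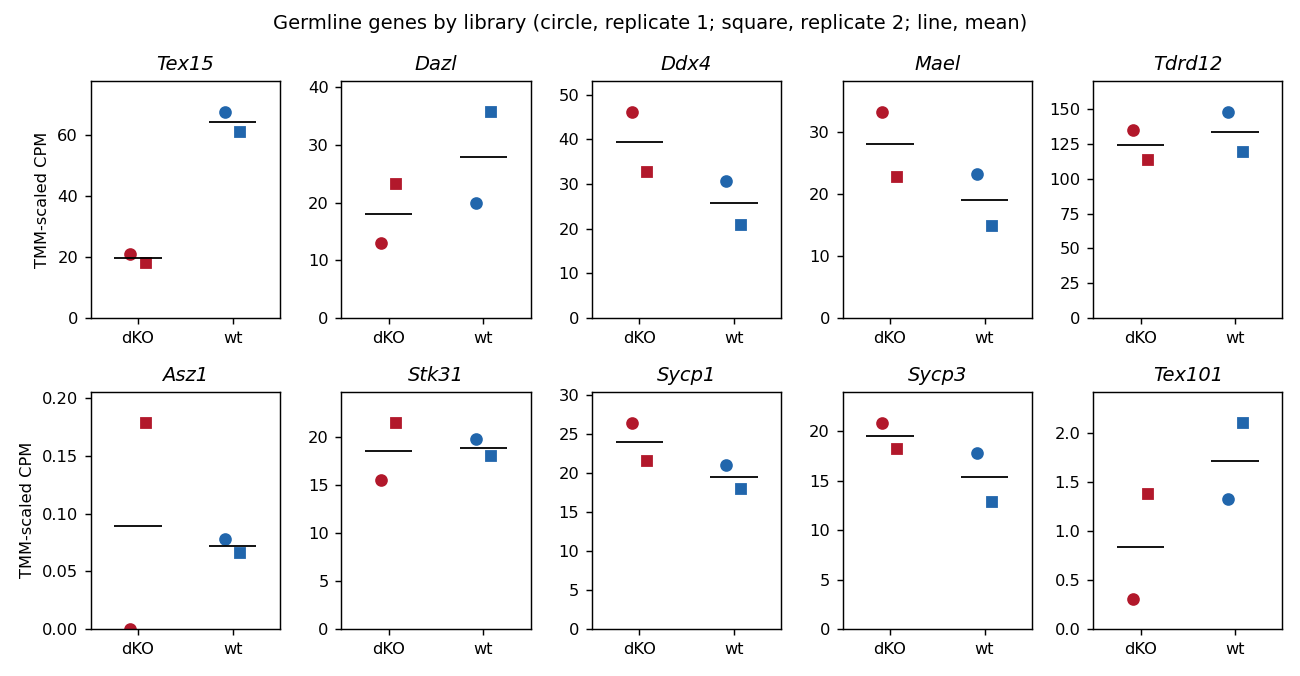
TMM-scaled CPM of each of the 10 genes, with the dKO libraries left and the wt libraries right in every panel (circle, replicate 1; square, replicate 2; line, mean); each y axis starts at 0 and has its own scale. Tex15 shows the widest gap, at 19.6 CPM in dKO against 64.2 CPM in wt cells.

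Dazl and Ddx4 encode RNA-binding proteins that mark germ cells. Dazl, a regulator of translation, had 13.0 and 23.2 CPM in dKO replicates 1 and 2, and 20.01 and 35.7 CPM in wt replicates 1 and 2. The genotypes overlapped, since dKO replicate 2 lay above wt replicate 1. The log2 fold change was -0.62 (SE 0.38). Replicate 2 exceeded replicate 1 by a ratio of 1.78 in both genotypes, and the dKO to wt ratio was 0.650 at each replicate number, so the difference between replicates was larger than that between genotypes. With 1 library left out, the Dazl value ran from -1.09 to -0.14. Ddx4, the mouse VASA helicase, had 46.1 and 32.75 CPM in dKO and 30.6 and 20.8 CPM in wt replicates 1 and 2. Its lower dKO library lay just above its higher wt library. The log2 fold change was 0.62 (SE 0.26), and the dKO to wt ratios were 1.505 for replicates 1 and 1.57 for replicates 2. In Ddx4 the libraries numbered 2 were the lower ones in both genotypes, and the fold change ran from 0.35 to 0.91 with 1 library left out.

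Mael, Tdrd12, Asz1 and Stk31 belong to the piRNA machinery of the germ granules or are linked to it. Mael, which is required for transposon silencing in the testis, had 33.2 and 22.8 CPM in dKO and 23.2 and 14.8 CPM in wt replicates 1 and 2. The genotypes overlapped by a small margin, and the log2 fold change was 0.56 (SE 0.29), with dKO to wt ratios of 1.43 and 1.54 by replicate number. Tdrd12 had the most reads of the list, at 2198 and 1902 counts in dKO and 1891 and 1812 in wt replicates 1 and 2. Scaled to 135 and 113.5 CPM in dKO and 148 and 119 CPM in wt cells, the genotypes overlapped, with a log2 fold change of -0.10 (SE 0.16). Stk31, a testis protein with a Tudor and a kinase domain, had 15.5 and 21.5 CPM in dKO and 19.8 and 17.95 CPM in wt cells (log2 fold change -0.03, SE 0.22). Its dKO libraries lay on either side of both wt libraries. Asz1, a germ granule scaffold protein, had 0 and 3 counts in dKO and 1 and 1 in wt replicates 1 and 2, did not pass the low-count filter and gets no fold change. A count of 0 in dKO replicate 1 allows a level of up to 0.180 CPM of its unscaled library total, for counting error only.

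Sycp1 and Sycp3 encode parts of the synaptonemal complex. Sycp1, the transverse filament protein that holds paired chromosomes together, had 26.4 and 21.5 CPM in dKO and 21.0 and 17.95 CPM in wt replicates 1 and 2. Sycp3, a protein of the chromosome axis, had 20.9 and 18.2 CPM in dKO and 17.8 and 12.9 CPM in wt cells. In both genes the lower dKO library exceeded the higher wt library by less than 1 CPM. Their log2 fold changes were 0.30 (SE 0.19) for Sycp1 and 0.35 (SE 0.22) for Sycp3. Reads of Sycp3 are uncertain where its row overlaps that of Chpt1, with which it shares 420 bases of transcript. Chpt1 had 134 and 308 counts in dKO and 152 and 307 in wt replicates 1 and 2, a pattern that followed the replicate number and not the genotype. Part of a Sycp1 transcript matched 64 other genes, over at most 123 bases.

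Tex101, a glycoprotein on the surface of germ cells that sperm need to reach the oviduct, was barely detected. It had 5 and 23 counts in dKO and 17 and 32 in wt replicates 1 and 2, or 0.307 and 1.37 CPM in dKO and 1.33 and 2.10 CPM in wt cells. The genotypes overlapped, and the log2 fold change of -1.03 had an SE of 0.72. It moved to -2.45 without dKO replicate 2 and -0.32 without dKO replicate 1, so single libraries decided its size.

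**Figure D4:**
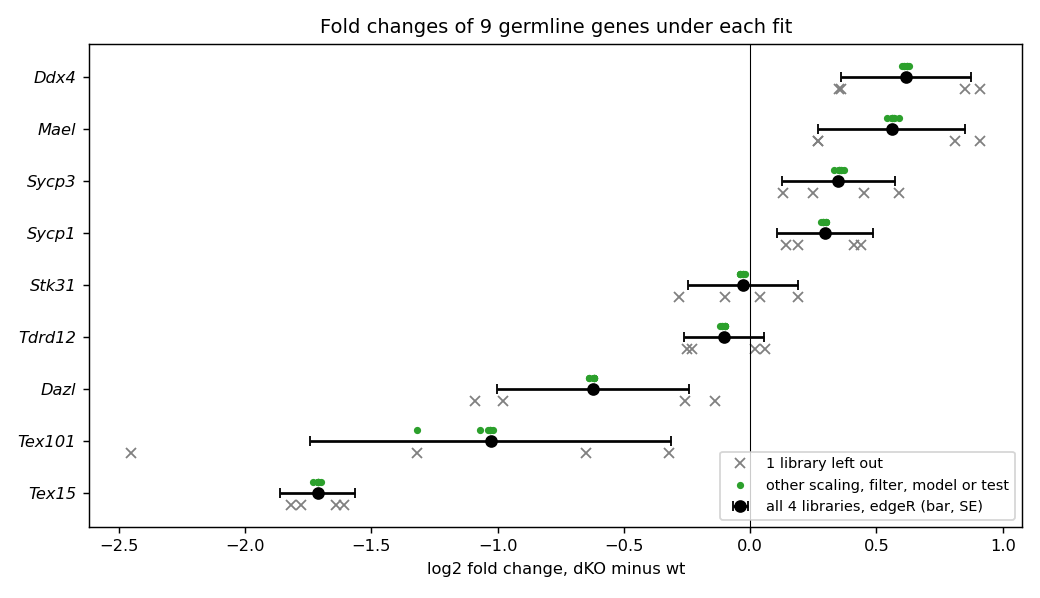
Log2 fold change (dKO minus wt, x axis) of the 9 genes past the low-count filter: the fit to all 4 libraries with its SE (black), fits without 1 library (crosses) and other scalings, filters, models or tests (green). Tex15 stays between -1.82 and -1.61, while Tdrd12 and Stk31 lie on both sides of 0.

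Across the list, 9 of 10 genes passed the low-count filter, 4 with positive and 5 with negative fold changes, and their median was -0.03, against -0.002 over all tested genes. By edgeR's quasi-likelihood test with Benjamini-Hochberg adjustment, 1 of the 9, Tex15, was called at an adjusted p under 0.05. Over all tested genes, 0.0855% were called. DESeq2, which called 0.684% of all genes, also called Tex15. So did a fit with the replicate number as a block, which called 9.26%, and limma-voom did not. Because the dKO against wt contrast chose the list, such calls are a description. Both dKO libraries lay above both wt libraries in 3 genes (Ddx4, Sycp1 and Sycp3), a pattern of 17.2% of all tested genes, and below them in 1 (Tex15), a pattern of 16.4%. With total counts in place of TMM scaling Mael joined the 3. Summed over the 10 genes, the level was 311 and 273 CPM in dKO and 349 and 302 CPM in wt replicates 1 and 2. Without Tex15 it was 290 and 255 CPM in dKO and 282 and 241 CPM in wt cells, and the genotypes overlapped in both sums. In 8 of the 9 genes the difference between replicates 1 and 2 had the same direction in both genotypes; the exception was Stk31. In bulk RNA, fewer cells that express a gene and less RNA per cell cannot be told apart.

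Tex15 was set beside the tested genes that start within 500 kb of it. The 7 neighbours were Wrn, Purg, Ppp2cb, Ubxn8, Gsr, Gtf2e2 and Rbpms. None was called by edgeR, DESeq2 or limma-voom, and 0 had an unadjusted p under 0.05, a level that 5.57% of all tested genes passed. Their log2 fold changes ran from -0.47 (Wrn, SE 0.31) to 0.15 (Rbpms, SE 0.28), with a median of -0.19. Ppp2cb, a phosphatase catalytic subunit and the nearest tested gene by start, had 83.7 ± 10.6 CPM in dKO and 93.9 ± 15.6 CPM in wt cells (SD, n = 2 each). Purg, a nucleic acid-binding protein whose start lies 130.4 kb on the other side, had 3.18 ± 0.19 CPM in dKO and 4.40 ± 0.74 CPM in wt cells (SD, n = 2 each). With 0.0855% of all tested genes called, a count of 0 among 7 says nothing particular about the neighbours, and 6 of the 7 values were negative.

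The profile of Tex15 over the 4 libraries was compared with 10657 tested genes of average log2 CPM of at least 2, by Euclidean distance of centred log2 CPM. The closest was Eif2s3y, a Y-linked translation initiation factor gene (distance 0.157), with 26.9 and 26.8 CPM in dKO and 87.7 and 82.7 CPM in wt replicates 1 and 2. The next were Slc15a2, a peptide transporter (0.238), Lonrf1 (0.396), Ap3b2, an adaptor complex subunit (0.401), and Slc9a3r2, a scaffold protein (0.464), with log2 fold changes from -1.81 to -1.31. Distances over 4 libraries describe these libraries only, and none of the 5 is on the list.

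Other genes of the same processes were counted on lists drawn up with earlier results of these data known. Over all tested genes, 0.0855% were called, 5.57% had an unadjusted p under 0.05, and both dKO libraries lay above both wt libraries in 17.2% and below them in 16.4%. Of 22 piRNA pathway genes 17 passed the filter, 9 with positive and 8 with negative fold changes and a median of 0.02, which ran from -0.05 to 0.19 with 1 library left out. No gene was called by edgeR, DESeq2 or limma-voom, and 1 of the 17 had an unadjusted p under 0.05, near the 5.57% of all genes. Both dKO libraries lay above both wt libraries in 2 of the 17 and below them in 1. The gene with the low p was Piwil2, a PIWI protein that binds piRNAs, with 43.7 and 43.8 CPM in dKO and 26.8 and 27.5 CPM in wt replicates 1 and 2. Its log2 fold change was 0.69 (SE 0.13, edgeR adjusted p = 0.381). Rnf17, a germ granule protein and the most abundant of the list, had 64.9 and 75.2 CPM in dKO and 69.9 and 81.7 CPM in wt cells (log2 fold change -0.11).

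Of 32 meiosis genes with a row, 28 passed the filter, 17 with positive and 11 with negative values. Their median was 0.21, and -0.07 without dKO replicate 2. None was called by edgeR, DESeq2 or limma-voom. An unadjusted p under 0.05 was found in 3 of the 28, where 5.57% of all genes had one, and these 3 were named after their values were seen. Meiob, a single-stranded DNA-binding protein of meiotic recombination, had 3.32 and 5.25 CPM in dKO and 1.17 and 1.45 CPM in wt replicates 1 and 2 (log2 fold change 1.70, SE 0.41, edgeR adjusted p = 0.575). Meioc and Ythdc2, partners in the switch from mitosis to meiosis, had log2 fold changes of 0.51 (SE 0.15) and 0.34 (SE 0.14). Both dKO libraries lay above both wt libraries in 10 of the 28 and below them in 4, against 17.2% and 16.4% of all genes. The most abundant members, Stag3, a meiotic cohesin subunit, and Hsf2bp, had log2 fold changes of -0.16 and 0.15.

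Germ cell identity and other testis genes numbered 30, of which 24 passed the filter, 8 positive and 16 negative, with a median of -0.09 and 0 called by edgeR, DESeq2 or limma-voom. The median was -0.36 without dKO replicate 2 and 0.03 without dKO replicate 1. An unadjusted p under 0.05 was reached by 2 of the 24, against 5.57% of all genes, and both were named after their values were seen. The dKO libraries lay above both wt libraries in 3 of the 24 and below them in 2, against 17.2% and 16.4% of all genes. Tex14, needed for the bridges between dividing male germ cells, had 69.8 and 80.5 CPM in dKO and 56.4 and 53.8 CPM in wt replicates 1 and 2 (log2 fold change 0.45, SE 0.13, edgeR adjusted p = 0.723). Tfap2c, a transcription factor of primordial germ cells, had 108 and 110 CPM in dKO and 142 and 138 CPM in wt cells (-0.36, SE 0.11, edgeR adjusted p = 0.723). The 6 primordial germ cell markers on that list, Tfap2c among them, summed to 199 and 205 CPM in dKO, below the 235 and 230 CPM in wt cells. Tfap2c made up nearly all of that gap, and the sum of the other markers overlapped between the genotypes. Of the 6, 5 had negative fold changes. The part of such cells in the Tex15 level was not tested. Dppa2 and Dazap1 were the most abundant, with log2 fold changes of -0.19 and -0.08.

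All 14 PRC1.6 genes passed the filter, 7 positive and 7 negative, with a median of 0.00. None was called by edgeR or limma-voom. An unadjusted p under 0.05 was found in 1 of the 14, against 5.57% of all genes, and DESeq2 called that gene, as it did 0.684% of all genes. The dKO libraries lay above both wt libraries in 4 of the 14 and below them in 1, against 17.2% and 16.4% of all genes. The gene with the low p was Mga, the scaffold of the complex and one of its DNA-binding subunits, with 692 and 653 CPM in dKO and 463 and 446 CPM in wt replicates 1 and 2. Its log2 fold change was 0.56 (SE 0.12), with an adjusted p of 0.448 in edgeR, 0.0271 in DESeq2 and 0.42 in limma-voom. E2f6 had 38.9 and 38.1 CPM in dKO and 45.3 and 33.7 CPM in wt cells, which overlapped, and Pcgf6 had 89.0 and 91.2 CPM in dKO and 96.2 and 89.6 CPM in wt cells. Both were read out for their roles in the complex, after their values were seen. Wdr5, the other gene named by abundance, had a log2 fold change of -0.18.

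Of the 23 DNA methylation and H3K9 silencing genes, all tested, 16 were positive and 7 negative, with a median of 0.13 that ran from 0.04 without wt replicate 1 to 0.22 without wt replicate 2. No gene was called by edgeR, DESeq2 or limma-voom. The dKO libraries lay above both wt libraries in 8 of the 23 and below them in 1, against 17.2% and 16.4% of all genes. The 2 of the 23 with an unadjusted p under 0.05, a level that 5.57% of all genes reached, were Tdg, a glycosylase of active demethylation (0.75, SE 0.20, edgeR adjusted p = 0.674), and Smchd1 (0.41, SE 0.16, edgeR adjusted p = 0.888), both named after their values were seen. Trim28, the most abundant, had 2175 and 2248 CPM in dKO and 2233 and 2217 CPM in wt cells. Tet1, which oxidises methylcytosine, had 919 and 848 CPM in dKO and 596 and 859 CPM in wt replicates 1 and 2, with a log2 fold change of 0.28 (SE 0.20).

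**Figure D5:**
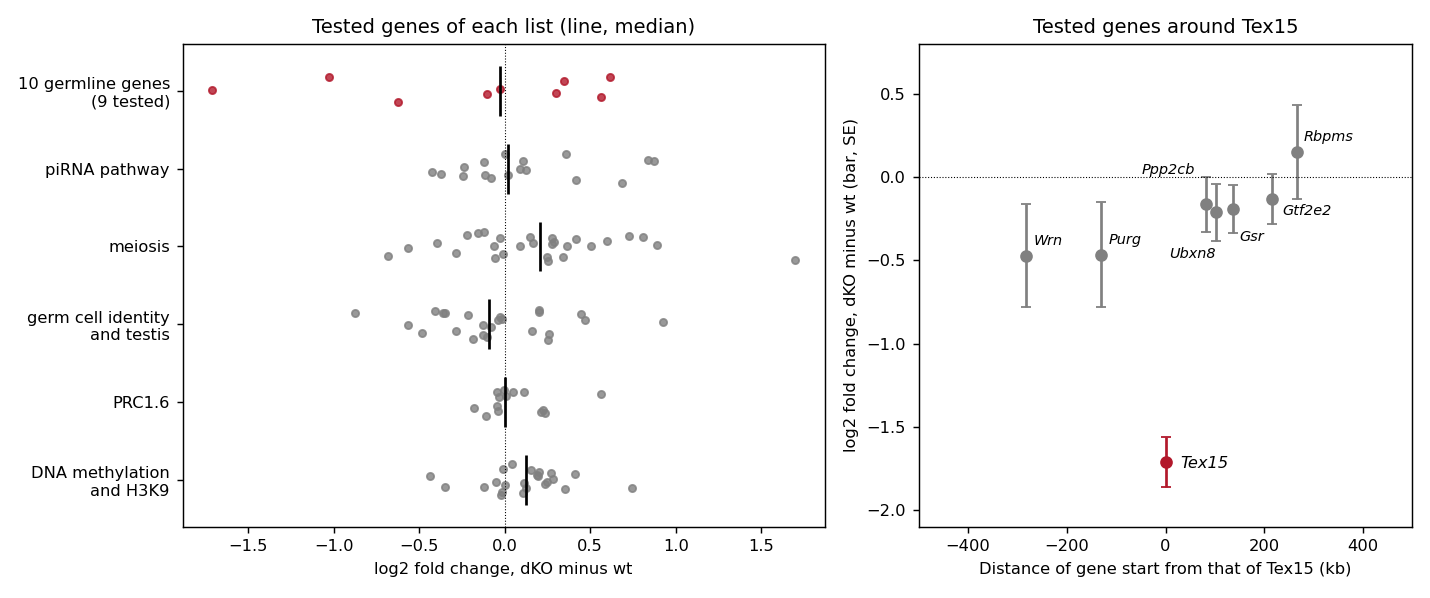
Left, log2 fold changes (dKO minus wt, x axis) of the tested genes of each list, with the median as a line and vertical scatter for display only. Right, the same quantity with its SE for Tex15 and the 7 tested genes around it, by distance between gene starts in kb; Tex15 lies at -1.71 and its neighbours between -0.47 and 0.15.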

How the data were processed

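Per the labels' protocols, Trizol RNA went into Illumina TruSeq library preparation. For each of the 4 libraries the authors deposited raw counts by Ensembl gene. The submitters' processing notes list TopHat2 2.0.6, TopHat and HTSeq. Genome build, annotation and strand setting were not given in the sources used here, so overlapping genes are uncertain. Replicates are called biological in the series' design text, with no source named, and p-values measure only the spread between these libraries. Every pair of libraries differed by more than counting noise (chi-square over degrees of freedom, 14.1 to 34.2).

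Symbols came from GENCODE M21 by gene ID (32919 of 37991 rows). In edgeR 4.0.16 under R 4.3.3, filterByExpr removed genes with low counts and TMM set the scaling. The test was the quasi-likelihood F test in its robust form fitted on genotype alone. Benjamini-Hochberg adjustment ran across the 14027 genes kept, and an adjusted p under 0.05 was a call. Log2 fold changes are dKO minus wt, and SEs come from the F statistic. Exon lengths are unions of GENCODE M21 exons. Copies were sought with blastn 2.17.0. The fit was tested on simulated data. These gave libraries of the same number no shared deviations, so that feature of the real libraries was not covered.

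The settings varied were the scaling (size factors of DESeq2, or totals alone), the low-count filter (none, or 1 CPM in both libraries of a genotype), a replicate block, each library left out, DESeq2 1.42.0, limma-voom (limma 3.58.1), the longest transcript and a shorter promoter window. The 10 genes and all lists were chosen with earlier results of these data known. From each other list the genes past the threshold, or else the 2 with the highest CPM, were named, with exceptions marked. Exact permutation of 1 value, 2 libraries against 2, cannot go below p = 0.333.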

Additional observations from a re-analysis of the deposited data

How the results depend on the processing

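Of 99 refits of the 9 tested genes' fold changes under the alternatives run, 95 kept the sign of the fit to all libraries. The other 4, each with 1 library left out, were Tdrd12 at 0.02 and 0.06 and Stk31 at 0.19 and 0.04. Most of the 99 refits used all 4 libraries again under other settings, which leaves little room for a change of sign. Tex101 ran from -2.45 to -0.32 with 1 library left out, and the other 8 genes moved by less than the spread between replicates. With the longest transcript as length, Tdrd12 stayed the highest per kilobase and Asz1 the lowest. Called genes over all tested numbered 12, against 96 by DESeq2, 5 by limma-voom, 80 with no low-count filter, 1299 with the replicate block and 18 to 27 with 1 library left out. DESeq2 called 1 PRC1.6 gene, against 0 in edgeR.

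Deviations from the genotype means were correlated between libraries of 1 number (r = 0.65 over 14027 genes). The titles give only a number, so this pairing is hinted at by the values and not stated by the design. The replicate block called 9.26% of all tested genes. Of the 9 tested germline genes it called 4, Ddx4 and Mael as higher and Tex15 and Dazl as lower in dKO cells. That count is a description, since the dKO against wt contrast chose the list. Among the other lists it called 2 of 17 piRNA pathway genes (Piwil2 and Tdrd1) and 4 of 28 meiosis genes (Meiob, Meioc, Ythdc2 and Sycp2). It called 2 of 24 germ cell identity genes (Tex14 and Tfap2c) and 1 of 14 PRC1.6 genes (Mga). It also called 5 of 23 DNA methylation and H3K9 genes (Tdg, Smchd1 and Tet2 higher in dKO, Dnmt3b and Mbd1 lower). Statements above that edgeR called no gene of a list refer to the fit without this block. Depth limited Asz1 and Tex101, with at most 3 and 32 counts in a library.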
